A study of Mus musculus with 6 samples.

Results

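The genes of the proteasome and of the CCT chaperonin were compared between haematopoietic stem cells (HSCs) of old and young mice. Members were all rows of the deposited count table whose GRCm38 identifier carries a symbol of the Psma to Psmg series, Pomp, Tcp1 or Cct2 to Cct8, and this rule found 59 of 16312 genes. HSCs are the rare bone marrow cells that renew themselves and give rise to all blood lineages, and here they were isolated by flow cytometry from male mice, with a gate that is not given in the sources used here. Young mice (n = 3, Young B6 control) were 8 to 12 weeks old and old mice (n = 3, Old B6 control) 22 months old. The title of the series gives the strain as C57BL/6N. Both groups are labelled as controls of a parabiosis experiment, in which animals are joined by surgery, and no transgene or treatment is named for either. Total RNA was sequenced in bulk, so fewer cells of a type and less RNA per cell cannot be told apart.

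The proteasome is the barrel-shaped protease that degrades proteins tagged with ubiquitin. Its 20S core has rings of alpha subunits, which gate the entrance, and rings of beta subunits, some of which cut the substrate. The 19S regulatory particle recognises, unfolds and feeds in the tagged protein. CCT, also called TRiC, is a ring-shaped chaperonin that uses ATP to fold actin, tubulin and other cytosolic proteins. Both machines are built in nearly all cells, and in HSCs the control of protein quality is widely studied because these cells divide rarely and persist for life.

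Young replicate 1 stood apart from the other libraries in several ways. In CPM (a gene's counts over the size of its library after TMM scaling) it was the highest of the 6 libraries for 24 of 59 members and young replicate 2 the lowest for 16. It also held the most counts of neutrophil markers (summed 237 CPM, the rest of the young group having 16.6 and 48.3 CPM and the old libraries 5.57 to 8.43 CPM) and of erythroid markers (1155 CPM, against 727 to 891 CPM in the other 5 libraries). Car2 made up most of the erythroid sum, with 734 to 910 CPM in young and 698 to 870 CPM in old libraries. In edgeR, 4 of 5 neutrophil and 3 of 9 erythroid markers tested fell in old mice at an adjusted p of 0.05. Among all genes 1.54% fell. Of the macrophage markers, 8 of 11 tested fell in old mice at an adjusted p of 0.05 in edgeR (3 without old replicate 3 and 5 without old replicate 1), and Adgre1, C1qb, Cd5l and Fcna had no counts in any old library. Lyz2, which myeloid cells in general express, made up most of the list's summed level (192 to 219 CPM in young, 181 to 207 CPM in old), with 129 to 174 CPM in young and 171 to 199 CPM in old libraries, and the other 11 markers summed to 45.3 to 64 CPM in young and 6.46 to 9.95 CPM in old libraries. HSC markers were present throughout, at 4114 to 4766 CPM in young and 4422 to 4826 CPM in old libraries. Of the 12 HSC markers, Slamf1 and Procr were called higher in old mice, where 2.45% of all genes rose. Of 6 endothelial markers tested, 3 were called higher in old mice, with sums of 128 to 199 CPM in young and 205 to 252 CPM in old libraries. Of 5 dendritic cell markers tested, 1 was called higher and 1 lower. Proliferation markers fell in old mice for 12 of 16 genes, where 1.54% of all genes fell, with summed levels of 3906 to 4549 CPM in young and 1967 to 2571 CPM in old libraries, and leaving out old replicate 3 or old replicate 1 left 4 or 6 of these calls, and leaving out young replicate 1 or young replicate 3 left 7. The part of these markers in the values of the proteasome and CCT genes was not tested.

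Across the whole set, transcripts of the proteasome and of CCT stood at nearly equal levels in old and young HSCs. The 59 members summed to 5502, 4845 and 4921 CPM in young replicates 1, 2 and 3 and to 5204, 4900 and 4997 CPM in the old ones. The old libraries thus lay inside the range of the young ones, with group means of 5089 ± 359 CPM (young) and 5034 ± 156 CPM (old; SD, n = 3), a ratio of 0.989. The median log2 fold change of old over young was −0.02 over the members and −0.02 over all 14288 genes tested. No member passed an adjusted p of 0.05 in edgeR's quasi-likelihood test, where 3.99% of all genes passed (2.45% higher and 1.54% lower in old mice). At an unadjusted p under 0.05 there were 4 members, Psma2, Psmc3ip, Psme2b and Psme4, where 16.5% of all genes reached that level. Psme2b, a near copy of Psme2, was called by DESeq2 (adjusted p = 0.00389) and by limma-voom (adjusted p = 0.0467), which called 7.47% and 3.95% of all genes.

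Intervals of the single genes bound the size of any difference. The 95% interval of the fold change lay within 2-fold in either direction for 53 of 59 members (89.8%), against 56.1% of all genes, and within 1.5-fold for 38 (64.4%), against 27.4%. The members were also more abundant, with a median mean level of 67.1 CPM against 21.4 CPM over all genes, and had a smaller median standard error (SE), 0.17 against 0.26 on the log2 scale. Every old library lay above every young one in CPM for 4 members and below for 8. These are 20.3% of the members, and the groups lay apart in this way for 22.4% of all genes (11.6% higher, 10.8% lower). That share of members was near the background. The median coefficient of variation of the members was 14.9% in young and 9.80% in old mice, and that of all genes was 20.6% and 16.9%.

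**Figure D1:**
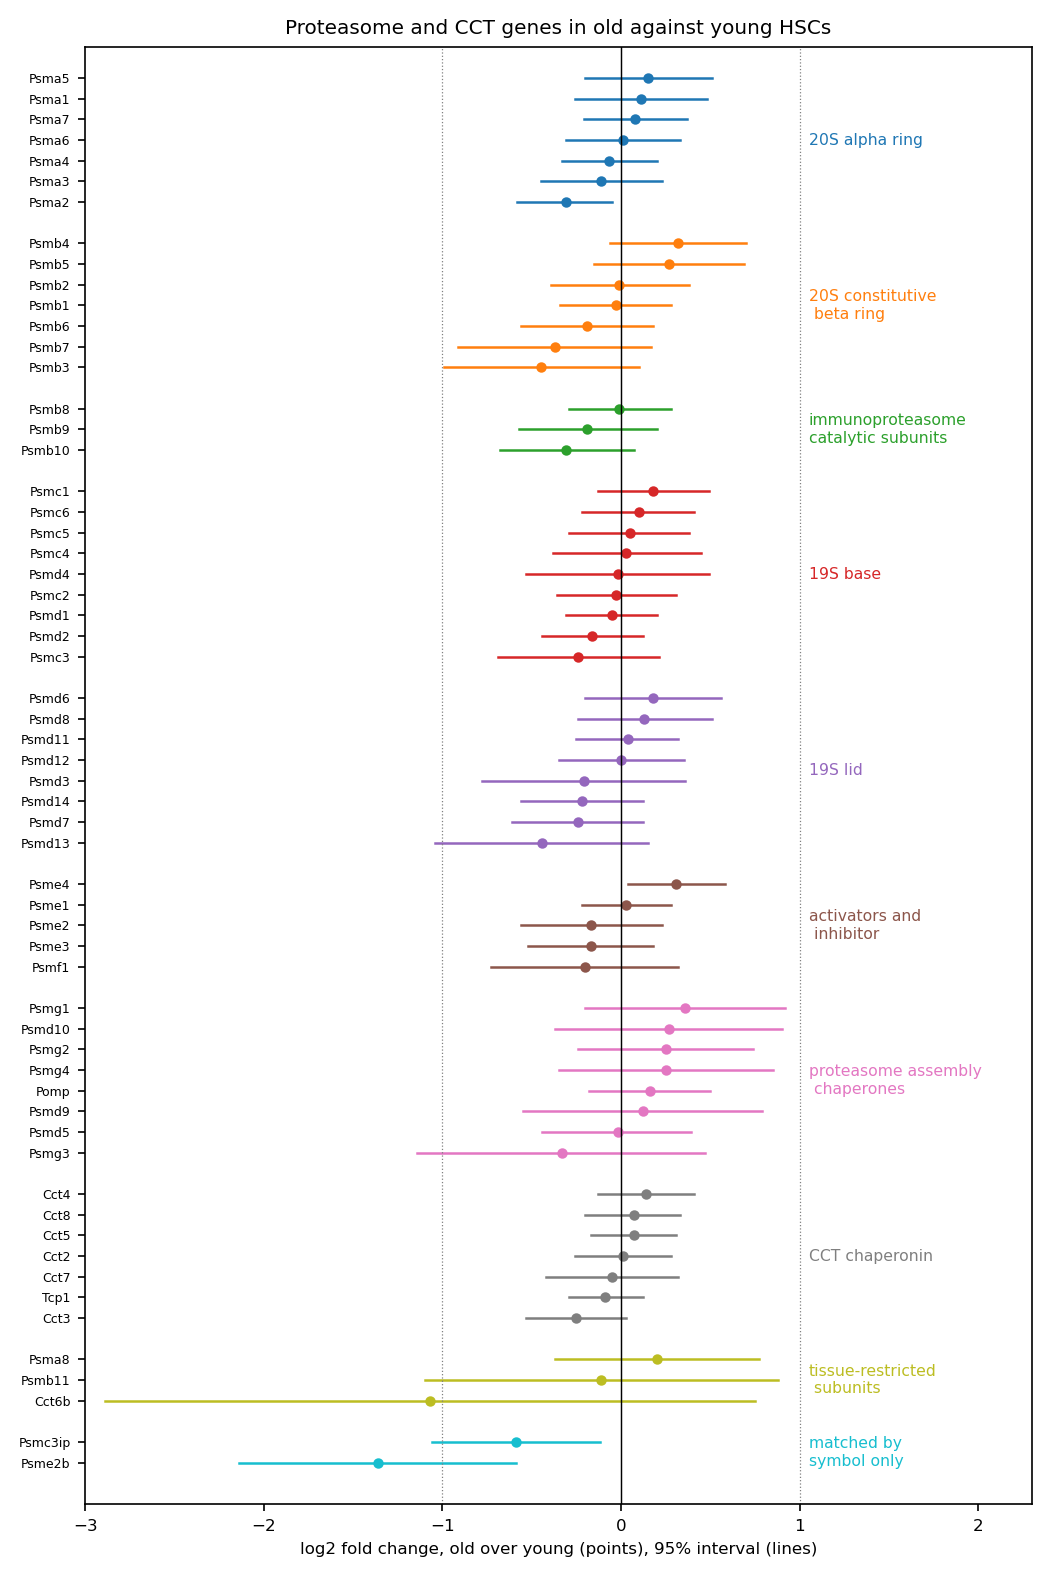
Log2 fold change of old over young for each of the 59 members (points, edgeR) with its 95% interval (lines), grouped by sub-complex; dotted lines mark a 2-fold difference in either direction. Most points lie close to 0, all 7 members of the 20S alpha ring and of CCT stay well inside the dotted lines, and Psme2b, at −1.36, is the lowest.

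Psme2b had the lowest fold change of all members. It matched the naming rule but is a copy of Psme2, which encodes the beta subunit of the 11S activator, a ring that docks on the 20S core. Psme2b has 1 exon on chromosome 11 (chr11:48945354-48946190, minus strand, GRCm38), whereas Psme2 lies on chromosome 14 (chr14:55587441-55591113, minus strand). Their coding sequences are both 717 bases long and differ at 5 positions, an identity of 99.3%, with an identical run of up to 311 bases. The stretch below, coding bases 464 to 543 of each GENCODE transcript, is shown because it holds 3 of these differences, which are the positions in capitals and among the places where a read of 50 bases can tell the copies apart.
Psme2: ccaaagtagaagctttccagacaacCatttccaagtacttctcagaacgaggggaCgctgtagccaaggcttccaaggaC
Psme2b: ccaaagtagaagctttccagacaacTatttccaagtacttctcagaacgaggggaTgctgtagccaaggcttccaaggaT

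Psme2b stood at 15, 18.7 and 21.1 CPM in the young libraries and at 10.8, 4.19 and 6.14 CPM in the old ones. The groups did not overlap, and old replicate 1 lay nearest to the young libraries. The log2 fold change was −1.36 ± 0.35 (SE; 95% interval −2.14 to −0.59), and the gene missed the threshold in edgeR (adjusted p = 0.0552). Without old replicate 1 the log2 value was −1.81 and edgeR called the gene (adjusted p = 0.0301). In the authors' deposited table, which has the sign of young over old, its log2 value is 1.03 (adjusted p = 0.0108). It is the only member called in the authors' deposited table, where 6.17% of 15649 genes are called.

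Psme2 itself stood at 88.8, 66.9 and 57.4 CPM in young and at 69.6, 56.0 and 63.8 CPM in old libraries. These groups overlapped, and the log2 fold change was −0.17 ± 0.18 (SE). Of all stretches of 50 bases in the transcripts of Psme2b, 69.3% also occur in another gene, and 28.3% of those of Psme2 do. These shares pool all annotated transcripts of a gene. Psme2 has 1914 stretches in all while its principal transcript is 962 bases long, so the share within that transcript can be higher. The split of reads between the copies is therefore uncertain. Together they reached 104, 85.6 and 78.5 CPM in young and 80.4, 60.2 and 69.9 CPM in old libraries, a ratio of 0.786 with overlapping groups. The exon of Psme2b also shares 41 bases with 9930111J21Rik1 on the same strand.

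The other activators of the core, which open its gate, had no common direction. Psme4 encodes the large nuclear activator PA200 (chr11:30771726-30880361, plus strand). It stood at 251, 189 and 197 CPM in young and at 265, 263 and 261 CPM in old libraries, so that the old libraries were tightly grouped and young replicate 1 lay closest to them. Its log2 fold change was 0.31 ± 0.12 (SE; 95% interval 0.04 to 0.58), with an adjusted p of 0.233 in edgeR. Without young replicate 1 the value was 0.45 and passed the threshold (adjusted p = 0.0486, edgeR). Psme3, the nuclear homologue of Psme1 and Psme2, had a log2 value of −0.17 (98.6, 76.6 and 112 CPM in young, 92.1, 76.2 and 86.8 CPM in old). Psme1, the partner of Psme2 and its near neighbour on the chromosome, averaged 135 ± 8.19 CPM in the young and 138 ± 5.37 CPM in the old group (SD, n = 3). Psmf1, an inhibitor of the core in vitro, had a log2 value of −0.20 with young replicate 2 at 48.6 CPM, above the other young libraries at 26.8 and 31.5 CPM.

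**Figure D2:**
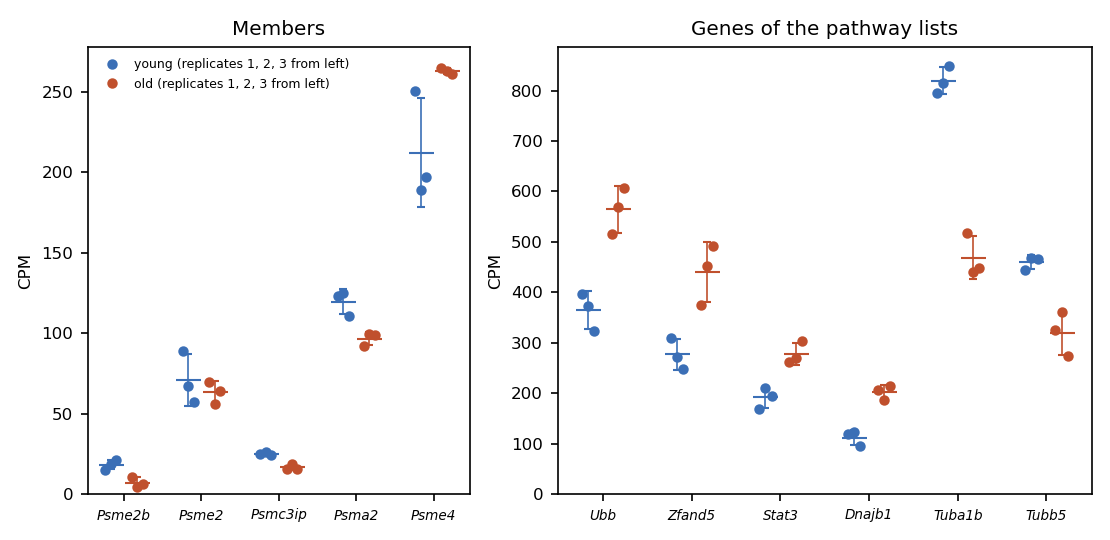
CPM in each library (points), with mean and SD (bars), for 5 members (left) and 6 genes of the pathway lists that were called by edgeR (right). Psme2b lies lower and Psme4 higher in every old library than in every young one, though edgeR called neither, while Ubb, Dnajb1 and Tuba1b show clear gaps between the groups.

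In the alpha ring of the 20S core no subunit was called, and all 7 intervals lay within 1.5-fold. The median log2 value was 0.01, from −0.31 for Psma2 to 0.15 for Psma5. Psma2 (chr13:14613240-14674236, plus strand) stood at 123, 125 and 111 CPM in young and at 92.0, 99.4 and 98.6 CPM in old libraries. The groups did not overlap, although the gap between them was small. Its log2 fold change was −0.31 ± 0.12 (SE), with an adjusted p of 0.215 in edgeR, and its value stayed between −0.36 and −0.27 when single libraries were left out. Psma5 stood at 93.7, 94.3 and 69.1 CPM in young and at 81.4, 102 and 103 CPM in old libraries. Of its stretches of 50 bases, 49.1% occur in other genes, most often in Gm8394, so its level is uncertain.

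The constitutive beta ring also had no called member, with a median log2 value of −0.03. Its highest and lowest members were structural subunits that do not cut substrates. Psmb4 stood at 50.8, 53.4 and 50.2 CPM in young and at 55.6, 57.8 and 79.4 CPM in old libraries. Old replicate 3 was far above the rest, and the log2 value was 0.32 ± 0.17 (SE; adjusted p = 0.399, edgeR). Psmb3 stood at 18.9, 18.7 and 19.6 CPM in young and at 13.1, 11.4 and 17.4 CPM in old libraries. All young libraries were above all old ones, with a log2 value of −0.45 ± 0.25 (SE; adjusted p = 0.421, edgeR).

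The immunoproteasome was set apart. In it, Psmb8, Psmb9 and Psmb10 take the places of the catalytic subunits Psmb5 (chymotrypsin-like activity), Psmb6 (caspase-like) and Psmb7 (trypsin-like), which alters the peptides made for display on MHC class I. Psmb8 and Psmb9 flank the peptide transporter gene Tap1 on chromosome 17 (chr17:34197721-34201454 and chr17:34181987-34187764). None of the 3 was called, and their median log2 value was −0.19. Psmb8 stood at 109, 102 and 129 CPM in young and at 112, 107 and 118 CPM in old libraries. The old values lay wholly within the young range, and the log2 value was −0.01 ± 0.13 (SE). Psmb9 stood at 59.1, 43.6 and 51.1 CPM in young and at 50.3, 41.7 and 43 CPM in old libraries, which overlapped (log2 value −0.19 ± 0.18). Psmb10 stood at 62.9, 53.1 and 58.2 CPM in young and at 52.7, 49.7 and 38.3 CPM in old libraries. Its groups were apart by less than 1 CPM, with a log2 value of −0.31 ± 0.17 (SE; adjusted p = 0.424, edgeR).

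The constitutive counterparts had no common direction. Psmb5 stood at 46.7, 32.9 and 33.4 CPM in young and at 42.0, 50.6 and 44.1 CPM in old libraries (log2 value 0.27 ± 0.19). Psmb6 stood at 63.3, 62.0 and 50.5 CPM in young and at 52.0, 44 and 57.5 CPM in old libraries (log2 value −0.19 ± 0.17). Psmb7 ranged from 65.3 to 130 CPM in young and from 56.5 to 97.3 CPM in old libraries (log2 value −0.37 ± 0.25). The groups overlapped for each of these subunits. Psmb5 shares 54.1% of its stretches of 50 bases with other genes, most often Gm3375, which limits what its level shows.

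**Figure D3:**
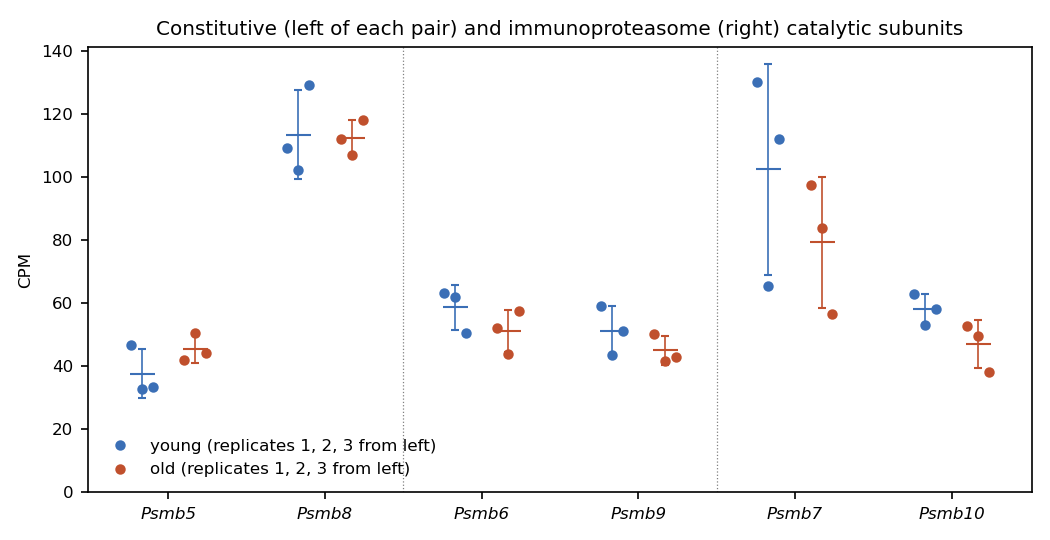
CPM of the 3 constitutive catalytic subunits (left of each pair) and their immunoproteasome counterparts (right) in each library (points), with mean and SD (bars). The old and young points overlap for all genes except Psmb10, and Psmb7 has the widest spread, from 56.5 to 130 CPM.

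Ratios within a library do not depend on how libraries were scaled. The log2 ratio of Psmb8 to Psmb5 was 1.22, 1.62 and 1.94 in young and 1.41, 1.09 and 1.42 in old libraries, a difference of −0.29 (exact permutation p = 0.3, two-sided). For Psmb9 to Psmb6 the mean log2 ratio was −0.20 ± 0.27 in young and −0.18 ± 0.21 in old mice, and for Psmb10 to Psmb7 it was −0.76 ± 0.40 and −0.73 ± 0.16 (SD, n = 3, exact permutation p = 0.9 for both). All 3 adjusted values were 0.9, and 20 arrangements cannot give a p under 0.1. The differences of the last 2 ratios, 0.02 and 0.03, changed sign when some single libraries were left out. Per kilobase of transcript, Psmb8 (69.5 ± 8.75 CPM in young) was above Psmb5 (41.9 ± 8.66 CPM), whereas Psmb9 (37.9 ± 5.74 CPM) and Psmb10 (44.3 ± 3.73 CPM) were below Psmb6 (73.4 ± 8.87 CPM) and Psmb7 (88.2 ± 28.7 CPM). Old mice had the same order in all 3 pairs.

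The 19S base holds the ring of ATPases that unfolds the substrate, encoded by Psmc1 to Psmc6, and the scaffold and ubiquitin-binding subunits Psmd1, Psmd2 and Psmd4. No gene of the base was called, its median log2 value was −0.02 and its summed level was 636 ± 14.2 CPM in the young and 624 ± 25.6 CPM in the old group (SD, n = 3). Psmc1 stood at 64.3, 57.3 and 60.7 CPM in young and at 68.9, 65.4 and 72.1 CPM in old libraries. These groups lay apart by about 1 CPM, and the log2 value was 0.18 ± 0.14 (SE; adjusted p = 0.599, edgeR). Psmc3 was the lowest at −0.24 ± 0.20, and Psmd2, the largest scaffold subunit beside Psmd1, was at −0.16 ± 0.13, both with overlapping groups.

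The 19S lid removes the ubiquitin chain, with Psmd14 as its deubiquitinase and Psmd7 as the partner of Psmd14. Its 8 genes had a median log2 value of −0.10, none was called, and in none were the groups apart. Psmd14 stood at 113, 89.0 and 92.0 CPM in young and at 93.0, 70.9 and 88.4 CPM in old libraries, with a log2 value of −0.22 ± 0.15. Psmd7 was at −0.24 ± 0.17, with old replicate 3 at 63.6 CPM below all others. Psmd13, a structural subunit, was the lowest at −0.44 ± 0.27 (26.0, 21.3 and 16.8 CPM in young, 18.4, 11.1 and 17.5 CPM in old), and Psmd6 the highest at 0.18 ± 0.17.

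Chaperones that assemble the proteasome, and leave or are consumed when it is complete, summed to slightly higher levels in old mice. Of the 9 groups of subunits and factors in the plot of summed levels, theirs was the only sum that did not overlap between the ages. The sum of Psme2b and Psmc3ip, which is outside that plot, did not overlap either. Among single genes, the groups lay apart for 22.4% of all those tested. The 8 genes summed to 225, 225 and 234 CPM in young and to 246, 260 and 239 CPM in old libraries, a ratio of 1.09. This difference of the sums was not tested. None of the 8 was called, and 6 had log2 values above 0, with a median of 0.20. Psmg1 and Psmg2, which form the dimer that starts the alpha ring, had log2 values of 0.36 ± 0.26 and 0.25 ± 0.22 with overlapping groups. Psmg1 stood at 12.1, 11.4 and 16.4 CPM in young and at 18.3, 17.5 and 15.3 CPM in old libraries. Psmg3, a partner of Psmg4 in the same task, was at −0.33 ± 0.37, with all old libraries just below all young ones (lowest young library 5.55 CPM). Psmg4 went the other way, at 0.25 ± 0.28, with all old libraries just above all young ones. It stood at 8.49, 10 and 10.6 CPM in young and at 10.7, 12.1 and 11.9 CPM in old libraries. Pomp, which guides the beta ring and is degraded by the finished core, was the most abundant per kilobase and stood at 69.7, 93.6 and 102 CPM in young and at 95, 104 and 96.7 CPM in old libraries.

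CCT genes had the highest median level per kilobase of the sub-complexes and nearly equal summed levels at both ages. The 7 measured genes summed to 1862, 1598 and 1627 CPM in young and to 1772, 1669 and 1660 CPM in old libraries, with means of 1696 ± 145 and 1701 ± 62.3 CPM (SD, n = 3). The median log2 value was 0.01, all 7 intervals lay within 1.5-fold and no gene was called. Cct6a, the eighth gene of the ring, was not analysed here. Tcp1, the founding subunit, stood at 483, 458 and 443 CPM in young and at 427, 439 and 438 CPM in old libraries. The groups were apart by only a few CPM, with a log2 value of −0.09 ± 0.09. Cct3 stood at 101, 99.8 and 92.1 CPM in young and at 81.6, 77.8 and 86.8 CPM in old libraries, also apart, with a log2 value of −0.25 ± 0.13 (SE; adjusted p = 0.371, edgeR). Cct4 was the highest at 0.14 ± 0.12, with overlapping groups (279, 236 and 207 CPM in young, 277, 269 and 249 CPM in old).

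**Figure D4:**
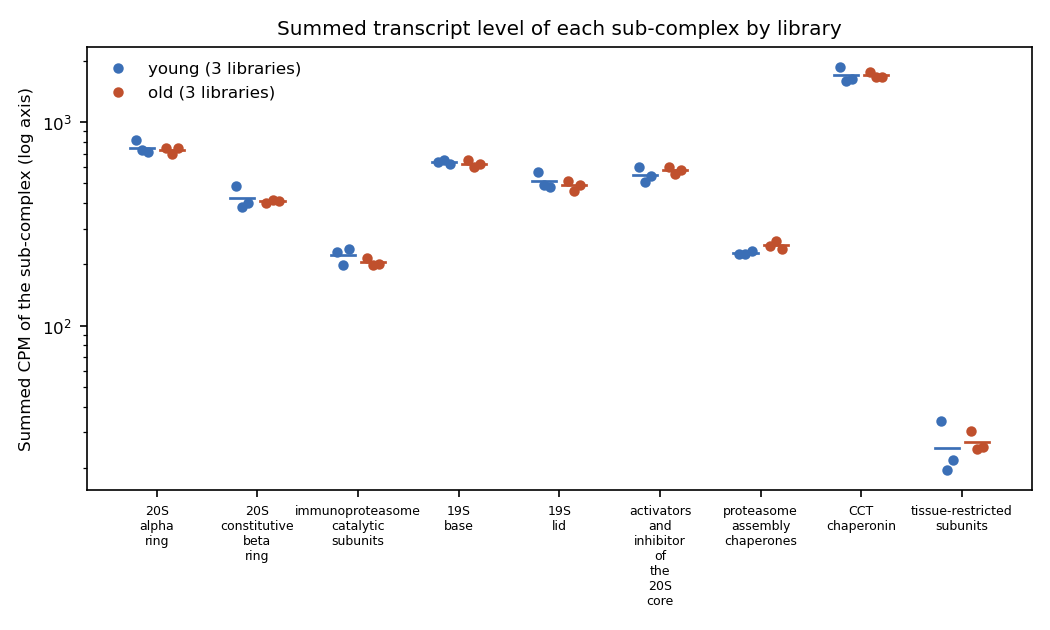
Summed CPM of each sub-complex in each library (points, log axis), with the group mean (horizontal line). Old and young points overlap for every sub-complex except the assembly chaperones, which reach 225 to 234 CPM in young and 239 to 260 CPM in old libraries.

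Subunits of a single complex differed in level per kilobase of the principal transcript. Per kilobase of transcript, the alpha ring of young mice ran from 41.2 CPM for Psma2 to 125 CPM for Psma7, a span of 3.03-fold, although each is present in equal copy number in the protein complex. Before division by length, Psma2 and Psma7 averaged 120 and 114 CPM in young mice. The span between them thus rests on the transcript lengths used, 2911 and 914 bases. Which transcripts these cells express was not tested, and this limits all spans given here. CCT ran from 48.4 CPM for Cct7 to 189 CPM for Tcp1, a span of 3.90-fold. The lid spanned 5.90-fold and the assembly chaperones 16-fold, with Psmd9 lowest at 3.5 CPM. In old mice the spans were 3.98-fold in the alpha ring, 4.46-fold in CCT, 6.93-fold in the lid and 16.4-fold in the assembly chaperones. Each of these was wider than in young mice, a difference that was not tested. The constitutive beta ring spanned 3.98-fold in young and 5.41-fold in old mice, whereas the base spanned 2.69-fold and 2.54-fold. The median level was 97 CPM per kilobase for CCT genes, 69.2 for the alpha ring, 43.5 for the constitutive beta ring, 33.6 for the base, 31.2 for the lid and 14.1 for the assembly chaperones in young mice.

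**Figure D5:**
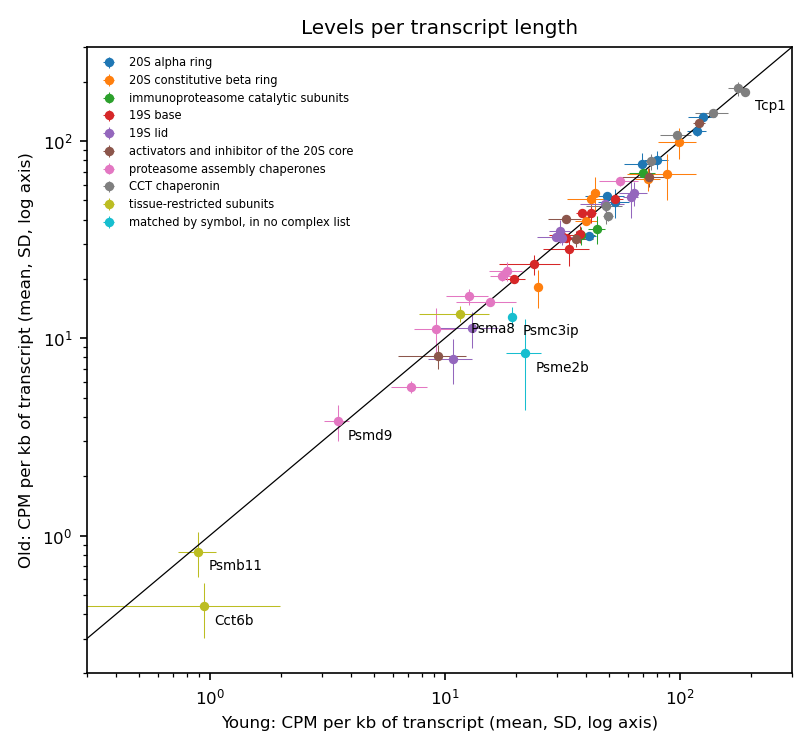
CPM per kilobase of transcript in young (horizontal, log axis) and old mice (vertical, log axis) for each member, as mean and SD of 3 libraries, with the line of equal levels. Members spread over more than 100-fold in level but lie along the line. Psme2b, Cct6b and Psmc3ip lie furthest below it, Cct6b with a wide SD in young mice.

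A few members are known from other tissues. Psma8, the alpha subunit of the testis, stood at 27.0, 14.7 and 17.2 CPM in young and at 24.8, 20.8 and 21.8 CPM in old libraries, with a log2 value of 0.20 ± 0.26. Psmb11, the catalytic subunit of the thymus, was low, averaging 3.80 ± 0.690 CPM in the young and 3.52 ± 0.910 CPM in the old group (SD, n = 3). Cct6b, the testis form of the CCT zeta subunit, had 3.84 CPM in young replicate 1 and between 0.397 and 0.928 CPM in the other 5 libraries. Its log2 value of −1.07 ± 0.83 rested on that library and was 0.38 without it. Psmc3ip matched the rule only through its symbol, since it encodes a cofactor of meiotic recombination that was found as a partner of Psmc3. It stood at 24.9, 25.8 and 24.0 CPM in young and at 15.2, 18.9 and 15.7 CPM in old libraries. These groups were well apart, with a log2 value of −0.59 ± 0.21 (SE; adjusted p = 0.177, edgeR).

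Genes that work with the proteasome were followed in lists. Their counts stand beside the background of 2.45% of all genes that rose and 1.54% that fell, and nothing particular to a list is read from them. Of 17 other subunits and proteasome-bound factors, 1 rose and none fell. That was Zfand5, which binds the 19S particle and stimulates degradation. It stood at 310, 272 and 248 CPM in young and at 375, 452 and 492 CPM in old libraries, clear of each other, with a log2 fold change of 0.67 ± 0.13 (SE; adjusted p = 0.0118, edgeR). Without old replicate 2 or old replicate 3 it missed the threshold (adjusted p = 0.0601 and 0.082, edgeR). The median over the list was 0.02. Ubb, a polyubiquitin gene, stood at 397, 373 and 324 CPM in young and at 516, 570 and 607 CPM in old libraries, which did not overlap. It rose by 0.63 ± 0.11 on the log2 scale (SE; adjusted p = 0.0077, edgeR), a call that was lost without old replicate 3 (adjusted p = 0.0585, edgeR). Vcp, the p97 segregase that extracts tagged proteins for the proteasome, had a log2 value of −0.12 and was not called.

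Of 14 regulators of proteasome gene transcription, 1 rose (2.45% of all genes rose) and none fell, with a median of 0.01. Stat3, a signal-dependent transcription factor, stood at 169, 211 and 195 CPM in young and at 261, 269 and 303 CPM in old libraries, which did not overlap. Its log2 fold change was 0.53 ± 0.12 (SE; adjusted p = 0.0289, edgeR). The call was lost without any 1 library other than young replicate 2, with adjusted p-values of 0.0561 to 0.163 (edgeR) and log2 values of 0.45 to 0.58. Nfe2l1, the factor that raises proteasome genes when the protease is inhibited, was at 0.05 ± 0.12 and not called, with 90.9, 94.2 and 90.7 CPM in young and 92.4, 96.7 and 95.8 CPM in old libraries. None of 12 genes of MHC class I peptide supply and interferon response was called. In that list Irf1, an interferon-induced transcription factor, had a log2 value of 0.37 (adjusted p = 0.33, edgeR).

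Around CCT, none of 12 co-chaperone genes was called (median −0.06), among them Pfdn5 at 0.25 and Pfdn6 at −0.66, subunits of prefoldin, which hands substrates to CCT. Of 19 genes of CCT clients, 2 fell (1.54% of all genes fell) and none rose, with a median of −0.10. Tuba1b, an alpha tubulin, stood at 795, 816 and 849 CPM in young and at 518, 440 and 449 CPM in old libraries, far apart, and fell by 0.81 ± 0.10 on the log2 scale (SE; adjusted p = 0.00086, edgeR). Tubb5, a beta tubulin, fell by 0.52 ± 0.12 (adjusted p = 0.0267, edgeR; 444, 469 and 466 CPM in young, 325, 361 and 274 CPM in old). Its call was lost without young replicate 2, young replicate 3, old replicate 1 or old replicate 3 (adjusted p = 0.0554 to 0.167, edgeR), whereas that of Tuba1b was kept in each case. The actin genes Actb and Actg1, at −0.03 and 0.04, were not called. A list of 15 other chaperone genes also holds the mitochondrial Hspd1 and Hspe1 and the transcription factor Hsf1. In that list 1 gene rose (2.45% of all genes rose) and none fell. It was Dnajb1, a co-chaperone of the heat shock protein HSP70. It stood at 118, 122 and 95.7 CPM in young and at 207, 186 and 214 CPM in old libraries, with no overlap and a log2 fold change of 0.86 ± 0.13 (SE; adjusted p = 0.00311, edgeR). Its call held without each library in turn, and without young replicate 3 Hsph1 was called as well (2 genes). The median over that list was −0.25.

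What the promoters of the members share was read from RefSeq windows of GRCm38.p6, from 250 bases before to 50 after each start, for the 50 members matched (55 promoters). Motifs were searched on both strands, and a match is a description of the letters, not a site. CCGGAAG, the core letters bound by ETS factors, was found in 38.2% of member promoters, in 15.9% of the promoters of tested genes and in 8.86% of all promoters. TGACNNNGC or TGAGNNNGC, the form of the antioxidant response element bound by Nfe2l1 and Nfe2l2, was found in 38.2%, 30.6% and 27.8%. Close to the background of tested genes were CCAAT (34.5% and 37.9%), GGGCGG (58.2% and 58.0%) and CACGTG (7.27% and 9.39%). A loose form of the interferon-stimulated response element occurred in 9.09% against 3.23%. The members with a match were Psmb3, Psmd4, Psmd9, Psme1 and Psmg4, none of them an immunoproteasome subunit. Whether this share differs from the background was not tested. TGACGTCA, which begins with TGAC as does the antioxidant form, occurred in no member promoter and in 2.74% of those of tested genes. The heat shock element also had no match in member promoters, with 0.456% among tested genes. With 55 member promoters, the absence of motifs this rare cannot tell the members from the background. Windows around the ETS letters (in capitals, CTTCCGG on the other strand) are shown as examples for 4 of the 20 members that hold them, from the base (Psmc2 and Psmd2), CCT (Cct8) and the assembly chaperones (Psmg1), each written on the strand of the gene.
Psmc2 (chr5:21785175-21785214, plus strand): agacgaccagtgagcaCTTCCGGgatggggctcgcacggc
Psmd2 (chr16:20651610-20651649, plus strand): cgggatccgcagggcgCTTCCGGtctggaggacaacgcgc
Cct8 (chr16:87495883-87495922, minus strand): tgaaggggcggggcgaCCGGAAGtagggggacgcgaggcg
Psmg1 (chr16:95991006-95991045, minus strand): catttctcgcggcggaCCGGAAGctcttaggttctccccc
The matches lie 78, 20, 31 and 63 bases before the start of the gene, and the window of Cct8 also holds GGGCGG. None of these 4 genes was called between the ages, with log2 values of −0.03, −0.16, 0.07 and 0.36.

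The authors' deposited table covers all 59 members, and 54 lie on the same side of 0 there as in the fit of the counts. The other 5, named after their values were seen, are Cct2, Cct7, Psmb8, Psmc6 and Psmd5. For Cct7 the authors' deposited table gives a log2 of −0.43 in the sense of young over old (adjusted p = 0.231), whereas the counts gave −0.05 as old over young with overlapping groups. For Psmc6 the authors' deposited table gives 0.30 in that sense (adjusted p = 0.417), whereas the counts gave 0.10 as old over young. The values of the authors' deposited table are thus not an exact restatement of the fit of the counts, and why they differ was not tested. For Cct4 the log2 value is −0.37 in the authors' deposited table (adjusted p = 0.0877). Apart from Psme2b, no proteasome or CCT gene is called in the authors' deposited table.

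Reads of 50 bases can also fit more than 1 gene for other members. No stretch of 50 bases was shared with another gene for 28 of the 59, under 5% of stretches for 19, between 5% and 20% for 8 and more than 20% for 4 (Psme2b, Psmb5, Psma5 and Psme2). The shares pool all annotated transcripts of a gene and can be higher within the principal one. Exons of 18 members share bases with exons of another gene, of 15 on the opposite strand, such as Psmb9 with Tap1 (212 bases), Tcp1 with Acat3 (571 bases) and Psmd9 with Gm26745 (1849 bases). Whether the counting used strand is not given in the sources used here, so such reads cannot be told apart.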

How the data were processed

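HSC RNA was prepared with a low-input library kit and read from a single end (50 bases), per the labels' protocols and the design text, which names 3 biological replicates per age. P-values set the difference between the ages against the spread between these samples. The submitters' processing notes name FastQC, MultiQC, Salmon, DESeq2 and GRCm38, without versions or roles. The authors deposited estimated counts per gene as whole numbers, with library totals from 12494557 to 30931680 counts. The authors also deposited a log2 fold change of young over old (its sign was found from the counts, since all 570 genes called here have the opposite sign there), and a deposited p-value and adjusted p-value. Young replicate 2 carries different library numbers in its title and description and was matched by title.

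Genes were matched to the GRCm38 annotation by identifier (16301 with a symbol). In R 4.3.3, edgeR 4.0.16 filtered low counts (minimum 10, total 15), leaving 14288 genes, all members included, scaled by TMM (0.955 to 1.06) and ran the quasi-likelihood F test with Benjamini-Hochberg adjustment over all genes at 0.05. The fit was tested on simulated data. SEs derive from the F statistic, and intervals are at 95% per gene, unadjusted. Alternatives, run also for the pathway lists after seeing the data, were DESeq2 1.42.0, limma-voom (limma 3.58.1), other scalings, no filter and leaving out each library. Ratios used log2 CPM with a prior count of 2. Levels per kilobase used the principal transcript. The members, lists and motifs were chosen with earlier results of these data known, and Psme2b and Psmc3ip were set apart after matching. Members named in detail are all immunoproteasome subunits with their counterparts, the tissue-restricted ones, and in each sub-complex the 2 with the smallest p and those with the highest and lowest log2 value. From each pathway list the called genes are named, and otherwise those among the 2 with the smallest p, except for some genes that are not reported here. Other genes were named as examples after their values were seen.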

Additional observations from a re-analysis of the deposited data

How the results depend on the processing

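The count of called members was 0 with DESeq2 size factors, with library size alone and without the filter, 1 with DESeq2 and 1 with limma-voom (Psme2b in both), and 0 to 1 when single libraries were left out (Psme4 without young replicate 1, Psme2b without old replicate 1). Over all alternatives run, some medians of the sub-complexes crossed 0. These were the alpha ring (−0.05 to 0.10), the constitutive beta ring (−0.14 to 0.06), the base (−0.08 to 0.04), the activators and inhibitor (−0.21 to 0.02) and CCT (−0.07 to 0.08). Medians kept their sign for the immunoproteasome subunits (−0.29 to −0.07), the lid (−0.16 to −0.01) and the assembly chaperones (0.12 to 0.27). That of the tissue-restricted subunits, −0.11, ranged from −0.31 to 0.38 over left-out libraries, the latter without young replicate 1. With library size alone the median of all genes moved to −0.07. Direction turned for genes near 0 or resting on 1 library. Psmb8 was at 0.00 without the filter and with DESeq2 and ranged from −0.08 to 0.10 over left-out libraries (0.10 without young replicate 3, 0.01 without old replicate 1, 0.03 without old replicate 2). Psmb11 ranged from −0.31 to 0.07, at 0.00 without young replicate 3 and 0.07 without old replicate 3, Cct6b at 0.38 without young replicate 1 (lowest −1.55), and Psmf1 at 0.09 without young replicate 2 (lowest −0.37). Leaving out libraries moved the log2 ratio difference of Psmb9 to Psmb6 between −0.14 and 0.13 (−0.14, −0.05 and −0.04 without young replicate 2, old replicate 1 and old replicate 2) and that of Psmb10 to Psmb7 between −0.11 and 0.26 (−0.11, −0.06 and −0.06 without young replicate 1, young replicate 3 and old replicate 3). For the pathway and marker lists these alternatives were added after seeing the data. DESeq2 called 2 proteasome-bound factors (Zfand5, Ubqln2), 2 transcription regulators (Stat3 and Maff, as did limma-voom, also 2) and 6 HSC markers. Over left-out libraries the called genes numbered 0 to 1 among proteasome-bound factors and among transcription regulators. They numbered 1 to 2 among ubiquitin genes, CCT clients and the list of other chaperones. Proliferation markers had 4 to 10 and macrophage markers 3 to 7. Where a value moved without 1 library, the fit had fewer samples, and no other cause was tested. No paired analysis was possible because the labels hold no number that ties a young mouse to an old one. Depth limits the low members most: Psmd9, Psmg3, Psmb11 and Cct6b had at most 298 counts in any library.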

Other observations

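Hsph1, a nucleotide exchange factor of HSP70 that was picked after its values were seen, differed widely among the young libraries. It stood at 426, 210 and 85.1 CPM in young replicates 1, 2 and 3 and at 170, 105 and 94.0 CPM in old replicates 1, 2 and 3. The 15 genes of the list of other chaperones summed to 12138, 9455 and 7631 CPM in young and to 9605, 8043 and 7769 CPM in old libraries. Young replicate 1, the highest for this list, was also the highest for CCT, at 1862 CPM. For the assembly chaperones it was at 225 CPM, level with young replicate 2.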
